A study of Arabidopsis thaliana with 30 samples.

Results

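This report describes the transcripts encoded by the chloroplast genome of Arabidopsis thaliana, as they were captured in poly-A RNA sequencing libraries of seedlings held under mock conditions or submerged in water. The members are the rows whose identifier starts with ATCG and which hold at least 30 counts over all libraries of their count table. Each table had 32833 rows, of which 133 carried such an identifier, and 82 of these were members in the bak set against 89 in the tcp set. All 82 members of the bak set were also members in the tcp set. The 7 further members of the tcp set included ATCG01310, annotated as ribosomal protein L2.

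The 30 libraries fall into 2 sets with Col wild-type controls of their own, kept apart throughout. The bak set held submerged and mock bak1-3 bkk1-1 seedlings, labelled T-DNA lines, and submerged and mock Col seedlings. BAK1 and BKK1 are membrane kinases that act as co-receptors in brassinosteroid and immune signalling. The tcp set held submerged and mock tcp21 and tcpq seedlings, both labelled Crispr lines, and submerged and mock Col seedlings. TCP21 is a class I TCP transcription factor. Each of the 10 groups had 3 libraries. The seedlings were 6 days old and are labelled as whole seedlings, while the extraction text also mentions germinating seeds. The sources used here do not give the length of submergence, the genes altered in tcpq or the number of independent lines. In the tcp set, replicate 1 of mock Col carries a genotype field that names the bak1-3 bkk1-1 lines, whereas its title and strain name Col, and the title was followed. BAK1 stood at 85.5 CPM there, against 78.8 and 87.3 CPM in replicates 2 and 3, where CPM is the count scaled to a common library total.

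Chloroplast genomes encode core subunits of the photosystems, the ATP synthase and the cytochrome b6f complex, the large Rubisco subunit, part of the plastid ribosome, a multi-subunit RNA polymerase, and ribosomal and transfer RNAs. That polymerase works with nuclear-encoded sigma factors, and a phage-type polymerase encoded in the nucleus transcribes further plastid genes, many of them for the expression machinery. In plants a poly-A tail on a plastid transcript is mainly a tag for its decay, so bead selection on poly-A captures a small and selective part of the plastid RNA. In bulk seedlings, fewer plastids or green cells and less plastid RNA per cell cannot be told apart. The reference annotation pairs 6 of the identifiers with a product, in notes on nuclear genes with a matching protein. The others are given here by identifier alone.

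Library totals ran from 19662531 to 27417759 counts (bak set) and from 17466180 to 33957452 (tcp set). Chloroplast rows held 4782 to 8614 counts per library of the bak set and 5058 to 100067 per library of the tcp set. The targeted genes were lower in their mutants than in Col of the same treatment, but not absent. BAK1 had 27.0 to 29.8 CPM in mock bak1-3 bkk1-1 seedlings, against 68.6 to 85.9 CPM in mock Col seedlings. Under submergence it had 69 to 88 CPM in bak1-3 bkk1-1, as high as in mock Col, against 121 to 142 CPM in submerged Col. BKK1 had 11.9 to 15.3 CPM in mock bak1-3 bkk1-1, against 30.4 to 43.7 CPM in mock Col. TCP21 had 28.5 to 33.7 CPM in mock tcp21 seedlings, against 90.4 to 106 CPM in mock Col seedlings. In tcpq seedlings TCP21 had 23.6 to 27.2 CPM in mock and 53 to 61 CPM under submergence, against 70.1 to 77.6 CPM in submerged Col. The third tcp21 library of each treatment stood apart from the other 2, with the highest chloroplast and mitochondrial shares of its group, so the main tcp21 values are also given without both libraries, an alternative chosen after seeing the data. Summed seed storage markers reached 131 to 261 CPM in the submerged Col libraries of the bak set, against 262 CPM in the second mock Col library and at most 1.31 CPM in the other 2. In the tcp set the same 9 markers summed to at most 2.81 CPM in any library.

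Chloroplast-encoded counts were a small share of every library, and that share was several times higher in tcp21 seedlings than in Col. They made up 0.237%, 0.220% and 0.564% of the counts in the mock tcp21 libraries, against 0.0351%, 0.0290% and 0.0365% in the mock Col libraries. The mean was 0.341% ± 0.194 in tcp21 and 0.0335% ± 0.00401 in Col (SD, n = 3 each), a ratio of 10.2. A share over the members was given no test. Under submergence the share was 0.0997%, 0.0917% and 0.238% in tcp21, against 0.0303%, 0.0296% and 0.0374% in Col, a ratio of means of 4.41. The lowest tcp21 library lay above the highest Col library in each treatment. Without the third tcp21 libraries the ratios were 6.82 in mock and 2.95 under submergence. Each share had a 95% Wilson half-width of at most 0.00349 percentage points, which covers counting error only.

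The tcpq seedlings were much closer to Col. Their chloroplast share was 0.0382%, 0.0655% and 0.0472% in mock, above all 3 mock Col libraries, and the ratio of means was 1.5. The mitochondrial share of mock tcpq was 0.0162% to 0.0202%, against 0.0113% to 0.0121% in mock Col, a ratio of means of 1.56. Chloroplast counts were 2.74 ± 0.455 times the mitochondrial counts in mock tcpq and 2.89 ± 0.434 times in mock Col (SD, n = 3 each). Nuclear ribosomal RNA rows held 0.0512% to 0.0577% in mock tcpq, against 0.0292% to 0.0470% in mock Col. Of 27 mitochondrial rows 3 were called higher in mock tcpq, or 11.1%, below the share of all genes called higher. Their part in the chloroplast result was not tested. Under submergence it was 0.0431%, 0.0394% and 0.0374% in tcpq, against a highest Col value of 0.0374%. The lowest tcpq value and the highest Col value were equal as rounded, and the ratio of means was 1.23.

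Submergence went with different shares in the 2 sets. In the bak set the share was 0.0312%, 0.0409% and 0.0318% in submerged bak1-3 bkk1-1 seedlings, against 0.0261%, 0.0237% and 0.0213% in mock. For Col it was 0.0267%, 0.0279% and 0.0339% under submergence, against 0.0255%, 0.0195% and 0.0220% in mock. The groups did not overlap in either genotype, and the ratios of means were 1.46 in bak1-3 bkk1-1 and 1.32 for Col seedlings. For the tcp set the ratio was 0.42 in tcp21, 0.795 in tcpq and 0.967 in Col, and submerged and mock libraries overlapped in all 3 genotypes. The mean in tcp21 was 0.143% ± 0.0824 under submergence and 0.341% ± 0.194 in mock (SD, n = 3 each). Without the third library of each treatment, the submerged tcp21 libraries at 0.0997% and 0.0917% lay below the mock tcp21 libraries at 0.237% and 0.220%.

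**Figure D1:**
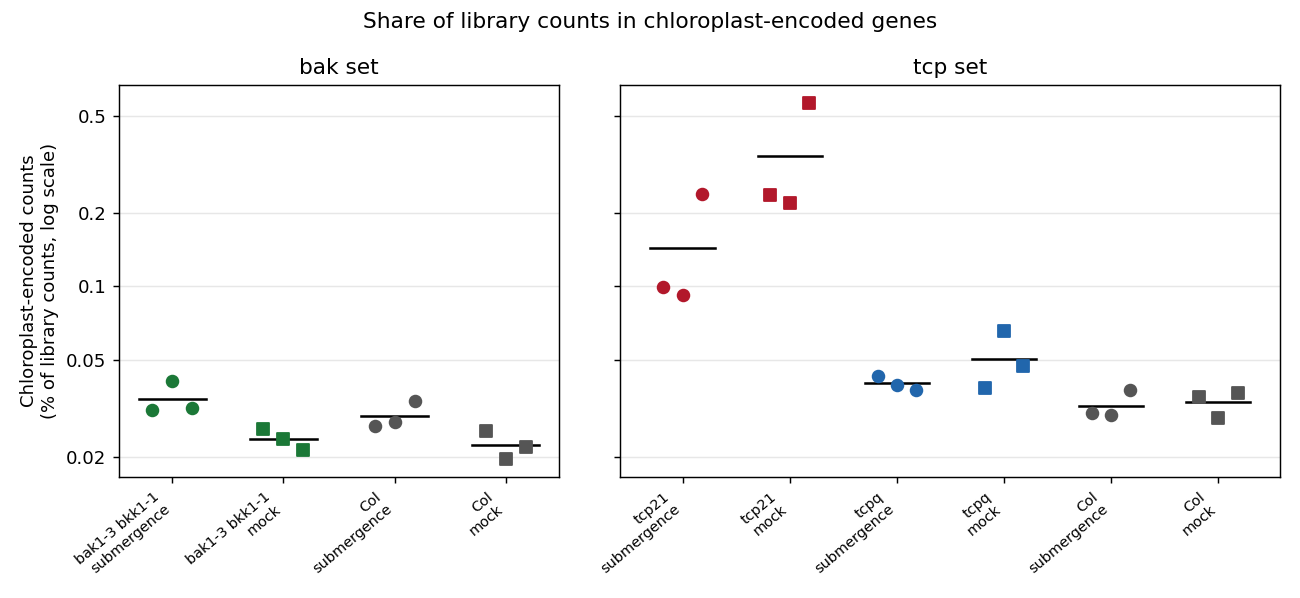
Share of each library's counts in chloroplast-encoded genes, in percent on a log scale, with 1 point per library and a line at the mean of each group of 3. All tcp21 libraries lie above all Col libraries of the tcp set, and the third library of each tcp21 group is the highest of its group.

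Other RNA classes that poly-A selection should deplete were also higher in the tcp21 libraries. Mitochondrially encoded rows made up 0.0353%, 0.0437% and 0.153% of counts in mock tcp21 seedlings, against 0.0113%, 0.0121% and 0.0116% in mock Col seedlings. Chloroplast counts were 6.74, 5.04 and 3.68 times the mitochondrial counts in the mock tcp21 libraries, against 3.12, 2.39 and 3.16 times in mock Col. The mean ratio was 5.15 ± 1.53 in tcp21 and 2.89 ± 0.434 in Col (SD, n = 3 each), and the third tcp21 library came near the Col values. Under submergence the ratio was 4.07, 3.51 and 3.55 in tcp21, against a range of 1.87 to 2.24 in Col. Rows of nuclear ribosomal RNA held 0.0676%, 0.0949% and 0.180% of counts in mock tcp21, against 0.0292% to 0.0470% in mock Col. Of 27 tested mitochondrial rows 13 were called higher and 0 lower in mock tcp21, with a median log2 fold change of 1.28. That is 48.1%, where 23.8% of all genes were called higher. Under submergence 4 were called higher, or 14.8%, near the 12.3% of all genes. The part of these differences in the chloroplast result was not tested.

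In the bak set the mean mitochondrial share was also higher under submergence in both genotypes. It averaged 0.0218% ± 0.00768 in submerged and 0.0146% ± 0.00362 in mock bak1-3 bkk1-1 seedlings (SD, n = 3 each). In Col it averaged 0.0152% ± 0.00278 under submergence and 0.0115% ± 0.00197 in mock (SD, n = 3 each). The mean ratio of chloroplast to mitochondrial counts was 1.66 in both treatments of bak1-3 bkk1-1. In Col it was 1.95 under submergence, against 1.98 in mock. Of 22 tested mitochondrial rows 11 were called higher under submergence in bak1-3 bkk1-1, or 50%, where 26.3% of all genes were. In Col 1 of 22 was called higher, or 4.55%, below the 25.4% of all genes. Nuclear ribosomal RNA rows averaged 0.108% ± 0.0506 in submerged and 0.0963% ± 0.0209 in mock bak1-3 bkk1-1 (SD, n = 3 each). In Col they averaged 0.06375% ± 0.0235 under submergence and 0.0361% ± 0.0112 in mock (SD, n = 3 each). These rows reached 0.160% in the second submerged bak1-3 bkk1-1 library, the one with the highest chloroplast share of the set. Their part in the chloroplast result was not tested.

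**Figure D2:**
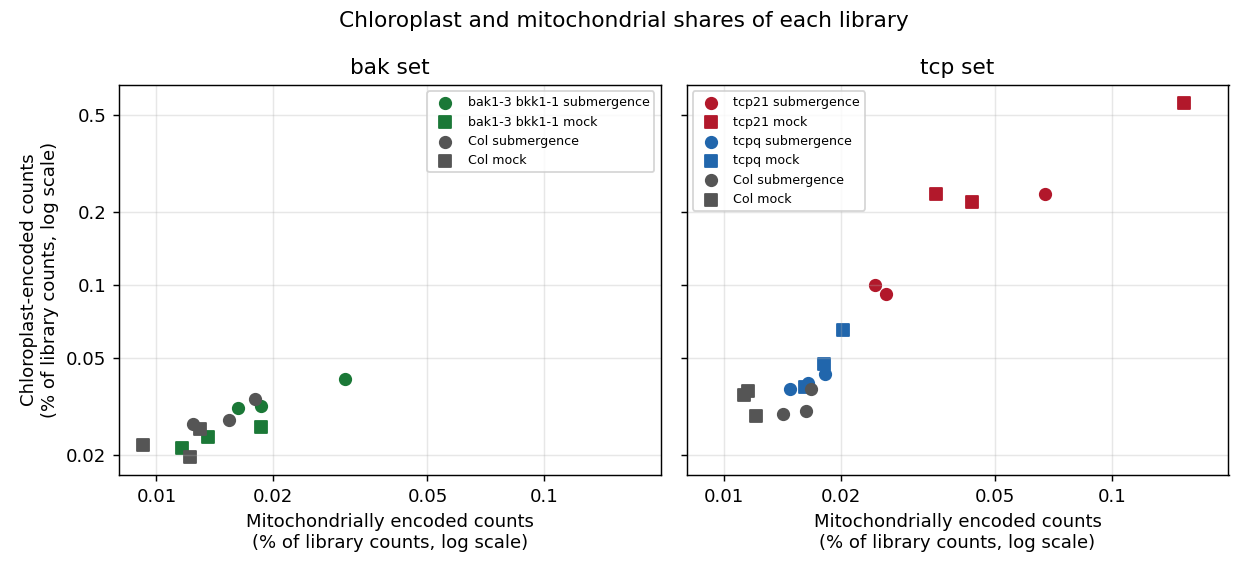
Chloroplast share against mitochondrial share of each library, both in percent of library counts on log scales. The 6 tcp21 libraries have the highest chloroplast shares of the tcp set, and the third mock tcp21 library, at 0.564% chloroplast and 0.153% mitochondrial counts, lies farthest out.

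The comparison of tcp21 with Col asks how these transcripts differed in the mutant. In mock seedlings 74 of 85 tested members were higher in tcp21 and 0 were lower (edgeR quasi-likelihood test, Benjamini-Hochberg adjusted p below 0.05 over all genes), where 23.8% of all genes were called higher and 23% lower. The median log2 fold change of the members was 3.18, beside 0.004 over all genes. Under submergence 67 of 85 were higher and 0 lower, where 12.3% of all genes were called higher and 14.4% lower, with a median of 2.29. By DESeq2 and all but 1 of the other settings on this scale the counts stayed within 1.5 times of these. That exception was the submergence count, which was 44 without the third submerged tcp21 library. Without the third library of both treatments 70 members were higher in mock and 59 under submergence, and the medians were 2.63 and 1.66. In that fit 22% of all genes were called higher and 21.3% lower in mock, and 9.52% higher and 9.95% lower under submergence. Among the 85 tested members 8 passed the low-count filter only through the tcp21 libraries, where their counts are high. Of the 77 that passed without those libraries 67 were called higher in mock, with a median of 3.12, and 62 under submergence, with a median of 2.26. In 67 of the 77 every mock tcp21 library lay above every mock Col library, a pattern shown by 22.3% of all tested genes. Of the 89 members 3, ATCG00010, ATCG00050 and ATCG01310, held under 30 counts outside tcp21, and none of these was tested.

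The size of the difference varied widely among the members. In mock, 28 of the 85 had a log2 fold of at least 4, 37 lay between 2 and 4, and 10 were under 1. The 85 include the 8 that passed the low-count filter only through the tcp21 libraries, where their counts are high. Neither these numbers nor the correlations below were made without those 8. The folds in mock and under submergence ranked the members alike, with a Pearson r of 0.89 and a Spearman rho of 0.87 over the 85 members. Each treatment had its own tcp21 and Col libraries. The members share each library's depth and organelle share, so the correlation is a description only.

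The annotated members illustrate the range. ATCG00750, ribosomal protein S11 of the small plastid ribosomal subunit, had 44.5, 31.7 and 61.3 CPM in mock tcp21 seedlings, against 1.4, 1.66 and 1.28 CPM in mock Col seedlings. Its log2 fold change was 5.04 ± 0.62 (SE, adjusted p = 2.03e-05 by edgeR), and no tcp21 library came near a Col library. ATCG00660, ribosomal protein L20 of the large subunit, had 13.8, 11.6 and 35.0 CPM in mock tcp21, against 1.4, 0.916 and 1.5 CPM in mock Col. Its log2 fold change was 4.02 ± 0.68 (adjusted p = 3e-04 by edgeR). ATCG00670, the plastid-encoded CLP P, is the proteolytic subunit of the Clp protease that the plastid makes itself. It had 39.5, 28.5 and 70.5 CPM in mock tcp21, against 4.16, 2.69 and 4.44 CPM in mock Col, a log2 fold change of 3.66 ± 0.51 (adjusted p = 5.96e-05 by edgeR). When the third tcp21 libraries were left out, the log2 folds were 4.78 ± 0.47 for S11, 3.37 ± 0.28 for L20 and 3.23 ± 0.19 for CLP P.

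The other tested members with an annotation had smaller folds. ATCG00430 is named photosystem II reaction center protein G only in a note on a nuclear gene, and the name was not checked. It had 8.16, 7.40 and 16.6 CPM in mock tcp21 seedlings, against 1.98, 1.77 and 2.00 CPM in mock Col seedlings. The log2 fold change was 2.52 ± 0.34 (adjusted p = 3.21e-06 by edgeR). ATCG00530, annotated as CemA-like and related to proton extrusion, had 23.4, 22.2 and 65.5 CPM in mock tcp21, against 9.34, 6.58 and 6.88 CPM in mock Col. Its log2 fold change was 2.33 ± 0.41 (adjusted p = 0.000422 by edgeR). Groups did not overlap for either gene. With those libraries left out, the log2 folds were 2.08 ± 0.27 for ATCG00430 and 1.64 ± 0.16 for ATCG00530. These are too few annotated members to compare functional classes.

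Under submergence the same 5 annotated members were again called higher in tcp21 than in Col. The log2 folds were 4.26 ± 0.64 for ribosomal protein S11, 2.29 ± 0.64 for L20 and 2.12 ± 0.49 for CLP P. They were 1.43 ± 0.34 for ATCG00430 and 1.69 ± 0.41 for ATCG00530. The adjusted p by edgeR was between 0.000411 and 0.0195. The interaction test gave adjusted p between 0.0934 and 0.602 for these 5, so a difference between the folds of the 2 treatments did not pass the test. Without the third tcp21 libraries the interaction was called for L20 at -2.11 ± 0.41, CLP P at -1.89 ± 0.28 and ATCG00430 at -1.04 ± 0.39, with adjusted p by edgeR between 1.11e-05 and 0.0472. It was not called for S11 and ATCG00530. In that fit the submergence folds over Col were 3.54 ± 0.49 for S11, 1.26 ± 0.29 for L20, 1.34 ± 0.19 for CLP P, 1.04 ± 0.27 for ATCG00430 and 1.38 ± 0.16 for ATCG00530.

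The 9 members with identifiers ATCG00740 to ATCG00820 stood together at the top of the range. Their log2 folds in mock lay between 4.45 and 8.36 with a median of 5.14, beside a median of 3.08 for the other 76 tested members. One of the 9, ATCG00820, passed the low-count filter only through the tcp21 libraries and was no member in the bak set. Among members that passed without them, the other 8 lay between 4.45 and 6.03 with a median of 5.12, beside 3.08 for 69 others. Without the third tcp21 libraries all 9 lay between 4.35 and 8.31, beside a median of 2.49 for the other 76. The run was singled out after its values were seen, and nothing is implied here about its place in the genome. ATCG00770 had 95.9, 50.5 and 91.6 CPM in mock tcp21 seedlings, against 1.4, 1.32 and 1.05 CPM in mock Col seedlings. That was a log2 fold change of 6.03 ± 0.60 (adjusted p = 3.06e-06 by edgeR). In submerged seedlings it had 22.7, 21.8 and 63.2 CPM in tcp21, against 1.46, 1.09 and 2.65 CPM in Col. ATCG00820 held 1451 counts over the mock tcp21 libraries, against 3 counts over the mock Col libraries and at most 2 in any Col library. Scaled to library totals that is a ratio of 364, with a 95% interval for counting error of 124 to 1770.

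Together these 9 members took 29.9%, 19.2% and 12.3% of the chloroplast counts in the mock tcp21 libraries, against 7.17%, 4.55% and 4.65% in mock Col. Under submergence they took 19.6%, 19.0% and 21.2% in tcp21, against 5.93%, 6.28% and 6.06% in Col. The share in tcpq was 6.15%, 9.79% and 6.44% in mock, of which the second library had the highest chloroplast share of its group. The mock tcp21 library with the highest chloroplast share had the lowest share of the run among the mock tcp21 libraries.

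**Figure D3:**
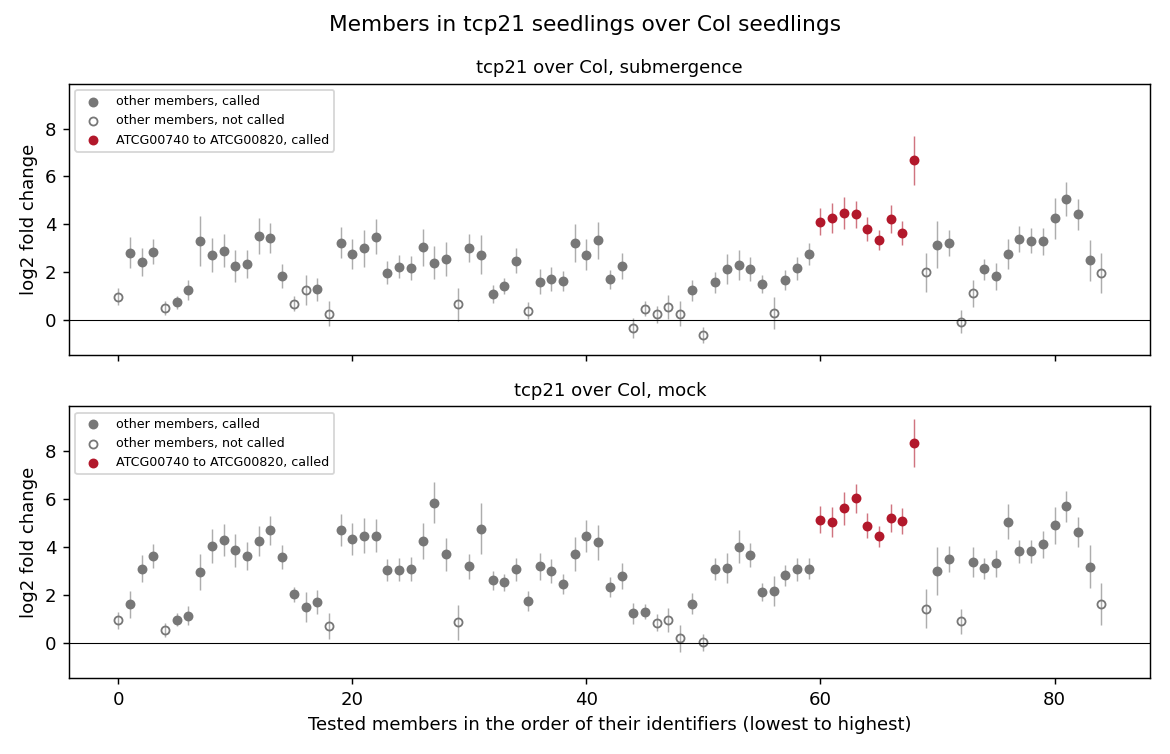
log2 fold change of each tested member in tcp21 over Col seedlings, with bars for the SE, in the order of the identifiers and with submergence above mock. The run ATCG00740 to ATCG00820, in red, lies between 4.45 and 8.36 in mock, where its highest point is ATCG00820, and open points mark the 11 members in mock and 18 under submergence that were not called.

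A smaller group of members was not called, and these included the row with the most reads in Col. ATCG00020 had 54.0, 67.3 and 166 CPM in mock tcp21 seedlings, against 43.0, 54.2 and 58.4 CPM in mock Col seedlings. The log2 fold change was 0.93 ± 0.36 (adjusted p = 0.0513 by edgeR), and the groups overlapped at 1 library. Under submergence its log2 fold change was 0.97 ± 0.36 (adjusted p = 0.0676 by edgeR), and without the third tcp21 libraries it was 0.64 ± 0.13 and called (adjusted p = 0.00122 by edgeR). ATCG00630 had 3.12, 3.70 and 6.20 CPM in mock tcp21, against 3.53, 4.35 and 5.33 CPM in mock Col, with a log2 fold change of 0.01 ± 0.36. Its libraries were interleaved, with the smallest fold among the 85 tested members. Under submergence all its tcp21 libraries lay below all its Col libraries, with a log2 fold change of -0.63 ± 0.34 that was not called (adjusted p = 0.185 by edgeR). In all, 11 members were not called in mock and 18 under submergence.

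The make-up of the chloroplast counts in tcp21 therefore differed from that in Col. ATCG00020 took 2.76% ± 0.420 of the chloroplast counts in mock tcp21 and 15.7% ± 3.25 in mock Col (SD, n = 3 each). Under submergence it took 6.09% ± 1.09 in tcp21 and 13.4% ± 2.03 in Col (SD, n = 3 each). The leading row of all 3 mock tcp21 libraries was ATCG00270, with 9.88% ± 2.09 in tcp21 and 4.20% ± 0.392 in Col (SD, n = 3 each). Moving the mean composition of mock tcp21 to that of mock Col would shift 36% of the counts to other rows, and 29.6% for submerged tcp21 against submerged Col. They were 36.8% and 27.6% with the third tcp21 libraries left out. Between tcpq and Col the value was 9.64% in mock and 10.4% under submergence, and between submerged and mock Col it was 10.8%. These are shares of reads, not corrected for gene length, so they do not rank the transcripts by abundance.

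Tested against the chloroplast total of each library in place of the library total, 17 members were higher and 23 lower in mock tcp21 than in mock Col. On that scale 0.186% of all genes were called higher and 97.7% lower, because the denominator itself differed between the genotypes. The adjustment over all genes is therefore close to no adjustment. ATCG00770 was higher by 2.80 ± 0.48 on the log2 scale, and ribosomal protein S11 by 1.74 ± 0.49. ATCG00020 fell by 2.5 ± 0.42 and ATCG00630 by 3.27 ± 0.49. Under submergence 19 members were higher and 13 lower, where 0.113% of all genes were called higher and 96.9% lower. ATCG00770 was then higher by 2.23 ± 0.47, and ATCG00630 fell by 2.59 ± 0.47. The counts of neither treatment were made without the members that passed the low-count filter only through the tcp21 libraries, where counts are high.

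**Figure D4:**
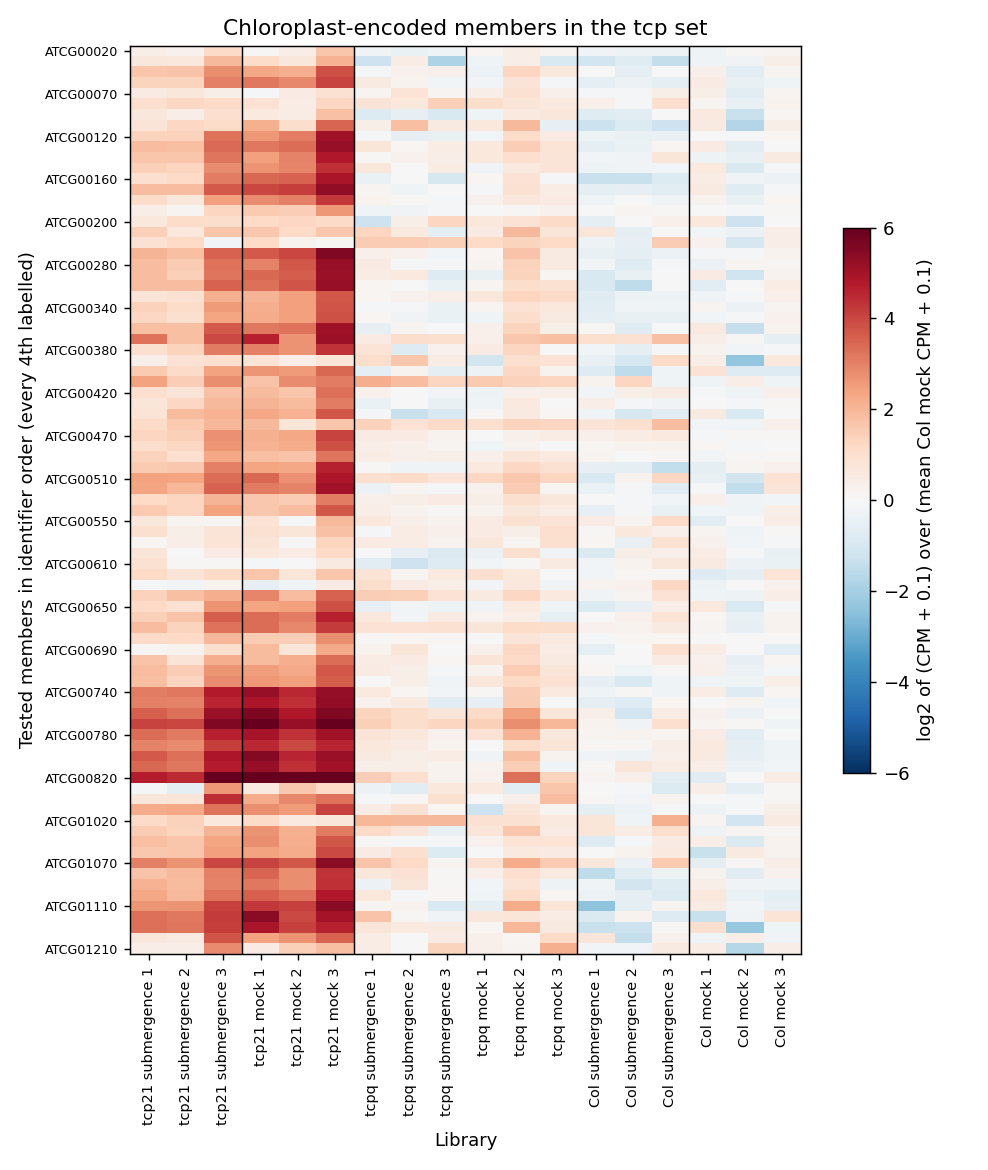
Level of each tested member in each library of the tcp set, as the log2 of CPM plus 0.1 over the mean mock Col CPM plus 0.1, with colours saturating at 6. The tcp21 libraries are red over most members and deepest in the third library of each treatment, while the tcpq and Col libraries stay pale.

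The nuclear partners of these transcripts did not move as one. Among 45 nuclear genes of the photosystems, antennae, electron transport and Rubisco, 28 were higher and 0 lower in mock tcp21 than in mock Col, with a median log2 fold change of 0.26. Under submergence 7 were higher and 10 lower. For all lists in this comparison, 23.8% of all genes were called higher and 23% lower in mock. Under submergence these shares were 12.3% and 14.4%. RBCS1B, a small Rubisco subunit, was higher in mock tcp21 by 1.07 ± 0.07 on the log2 scale. Of 8 sigma factors and phage-type polymerases 1 was higher and 2 lower in mock. SIGE, also known as SIG5, a light- and stress-responsive sigma factor, was higher by 2.25 ± 0.09 (adjusted p = 2.59e-17 by edgeR). SCA3, a plastid phage-type polymerase, fell by 1.27 ± 0.10 (adjusted p = 2.7e-11 by edgeR). Of 21 measured genes for plastid RNA decay, polyadenylation and stability 9 were higher and 6 lower, and of 13 proteins associated with the plastid-encoded polymerase 2 were higher and 6 lower. Summed root markers, 8 of 8 measured and none at 0, reached 309 to 347 CPM in mock tcp21, against 189 to 224 CPM in mock Col. Under submergence they reached 197 to 208 CPM in tcp21, against 151 to 162 CPM in Col. Their part in the chloroplast result was not tested.

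In tcpq few members were called against Col, with a median SE of the log2 folds of 0.64 in each treatment. In mock 5 of 85 were higher and 0 lower, where 25.8% of all genes were called higher and 22.6% lower. The median log2 fold change was 0.59, beside 0.037 over all genes, and 80 of the 85 folds were positive. The share of positive folds over all genes was not counted. The members share each library's organelle share, and the 85 include 8 that passed the low-count filter only through tcp21. The 80 are therefore a description only. The called members, named because they are few, were ATCG00450, ATCG00770, ATCG00410, ATCG00080 and ATCG00210. ATCG00770 had 3.54, 9.35 and 5.29 CPM in mock tcpq, against 1.4, 1.32 and 1.05 CPM in mock Col, a log2 fold change of 2.13 ± 0.71 (adjusted p = 0.025 by edgeR). ATCG00410 held 14 counts over the mock tcpq libraries and 1 count over the mock Col libraries, a ratio of 12.5 with a counting interval of 1.9 to 528. This row passed the low-count filter only through the tcp21 libraries. The number of called members was 0 without the first mock Col library and 1 without the second mock Col or second mock tcpq library. Without the first mock tcpq library it was 3. Fitted on these 2 groups alone it was 15, with DESeq2 9.

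Under submergence 1 member of 85 was higher in tcpq than in Col and 0 were lower, where 8.7% of all genes were called higher and 7.82% lower. The median log2 fold change was 0.44, beside 0.006 over all genes. The 1 call was ATCG00110, a row that passed the low-count filter only through the tcp21 libraries. It had 36 counts over the submerged tcpq libraries and 4 over the submerged Col libraries, a ratio of 10 with a counting interval of 3.6 to 38.9. The call was lost without the first submerged Col library or the second submerged tcpq library, and with the replicate number as a block. When these 2 groups were fitted alone 12 members were called. Without the third submerged Col library 3 members were called. In mock tcpq 40 of the 45 nuclear photosynthesis genes were lower and 1 was higher than in mock Col, with a median log2 fold change of -0.39. Of the 13 polymerase-associated proteins 10 were higher. In that comparison 25.8% of all genes were called higher and 22.6% lower.

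The effect of submergence was tested within each genotype. In tcp21, 22 of 85 members were lower and 0 higher under submergence than in mock, where 24.7% of all genes were called lower and 24.1% higher. The number of lower members was thus near the background, while the median log2 fold change of -0.96 lay apart from the -0.015 of all genes. ATCG00180 had 12.5, 9.19 and 32.8 CPM under submergence, against 42.4, 47.1 and 111 CPM in mock, and its log2 fold change was -1.71 ± 0.44 (adjusted p = 0.00588 by edgeR). ATCG00160 had 2.59, 2.91 and 11 CPM under submergence, against 14.3, 15.2 and 39.3 CPM in mock, and fell by 1.89 ± 0.53 on the log2 scale (adjusted p = 0.00942 by edgeR). In both members every submerged library lay below every mock library. ATCG00430 fell by 0.86 ± 0.30 (adjusted p = 0.0231 by edgeR), with libraries that overlapped. Without the third libraries ribosomal proteins S11 and L20 and CLP P were also called lower, with S11 at -1.49 ± 0.42, L20 at -1.52 ± 0.28 and CLP P at -1.39 ± 0.19 on the log2 scale (adjusted p by edgeR between 1.61e-06 and 0.0135).

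This count rested on few libraries. It was 42 without the third tcp21 library of both treatments and 53 without the third submerged library alone. It was 37 without the second mock library, 3 without the third mock library, and 4 without the first or without the second submerged library. Fitted on the tcp21 groups alone it was 1. The leading member of mock Col, ATCG00020, had 67.0, 61.6 and 115 CPM in submerged tcp21, against 54.0, 67.3 and 166 CPM in mock tcp21, and a log2 fold change of -0.06 ± 0.36. Relative to the chloroplast total 8 members were higher and 0 lower in submerged tcp21, where 58.4% of all genes were called higher and 1.07% lower.

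Among the nuclear lists, all 3 measured regulators of greening and plastid signalling fell, among them GPRI1, also known as GLK1, a transcription factor of chloroplast development, by 3.00 ± 0.10 on the log2 scale (adjusted p = 4.57e-20 by edgeR). Of the 8 sigma factors and phage-type polymerases 5 were lower, 0 were higher and 3 did not pass the test, with a median of -0.35, where 24.7% of all genes were called lower. The sigma factor SIGE fell by 2.01 ± 0.09 (adjusted p = 3.37e-17 by edgeR). Among the 45 nuclear photosynthesis genes 13 were higher and 1 lower, where 24.1% of all genes were called higher and 24.7% lower. The regulators of greening were also all lower in tcpq and Col, with medians of -1.01 and -1.15, against -1.45 in tcp21. Of the 8 sigma factors and phage-type polymerases 5 were lower in each of them too, with medians of -0.55 and -0.44. Of all genes 30.6% were called lower in tcpq and 22.9% in Col.

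In the other genotypes of the tcp set few members were called for submergence. The median SE of the log2 folds was 0.6 in tcpq and 0.67 in Col, so modest changes could go uncalled. In tcpq 2 of 85 were higher and 0 lower under submergence, where 32.8% of all genes were called higher and 30.6% lower, and the median log2 fold change was -0.18. In Col 3 of 85 were higher and 0 lower, where 27.1% were called higher and 22.9% lower, with a median of 0.17. ATCG01020 and ATCG00630 were called in both genotypes and ATCG00450 in Col, and all 3 are named because they are few. ATCG01020 had 29.8, 28.7 and 28.3 CPM in submerged tcpq, against 14.0, 13.8 and 11.2 CPM in mock tcpq, a log2 fold change of 1.47 ± 0.48 (adjusted p = 0.0174 by edgeR). In Col it had 12.3, 6.20 and 32.2 CPM under submergence, against 8.27, 3.21 and 10.5 CPM in mock, so the groups overlapped and the third submerged library was far above the rest. ATCG00450 had 1.11, 1.28 and 2.46 CPM in submerged Col, against 0.532, 0.515 and 0.777 CPM in mock Col, with a log2 fold change of 1.58 ± 0.41 (adjusted p = 0.00219 by edgeR).

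These counts were also unstable. In Col 1 member was called without the first or second mock library or the third submerged library, while 5 were called higher by DESeq2 or when the 2 groups were fitted alone. In tcpq the count was 0 without the third mock library, 1 without the first mock or first submerged library, and 7 higher and 5 lower when its groups were fitted alone. In tcpq 41 of the 45 nuclear photosynthesis genes were higher and 2 lower under submergence, and in Col 38 were higher and 0 lower, with median log2 fold changes of 0.73 and 0.41. The polymerase-associated proteins went mostly the other way, with 11 of 13 lower in tcpq and 8 of 13 lower in Col. Of all genes 32.8% were called higher and 30.6% lower in tcpq, and 27.1% and 22.9% in Col. SCA3 fell by 3.38 ± 0.11 on the log2 scale in tcpq and by 1.98 ± 0.11 in Col.

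**Figure D5:**
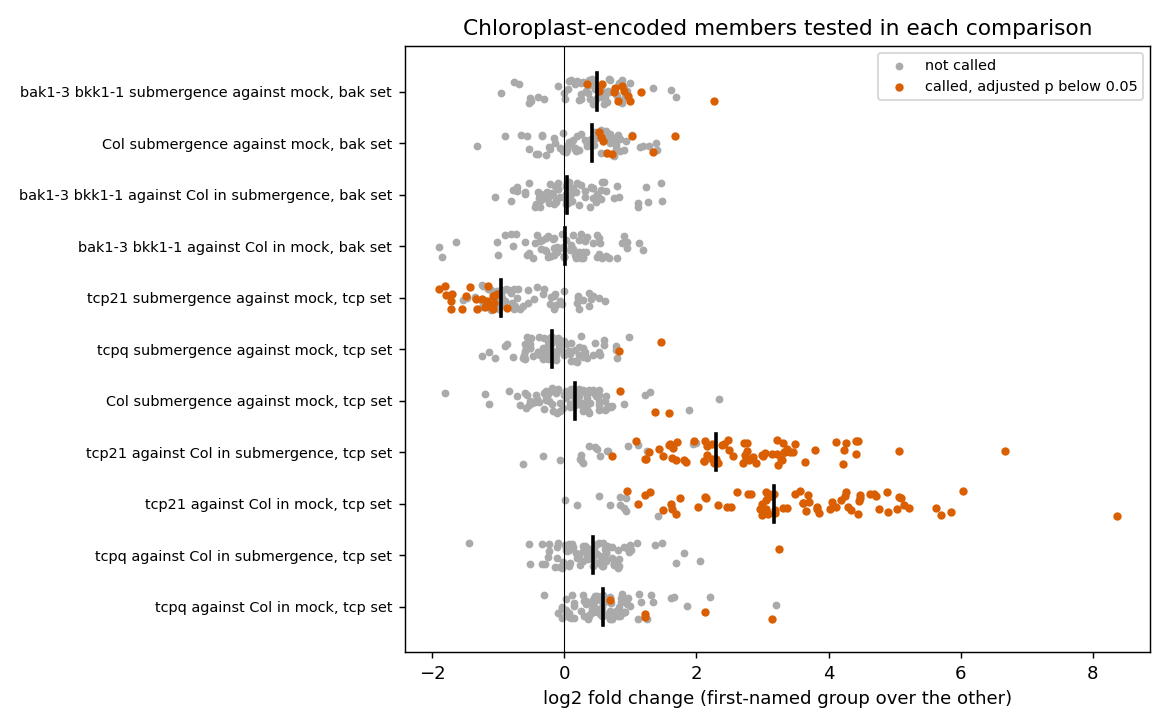
log2 fold change of every tested member in each comparison, with the first-named group over the other, called members in orange and a black bar at the median. The medians of tcp21 against Col are 2.29 under submergence and 3.18 in mock, and those of the other comparisons lie between -0.96 and 0.59.

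In the bak set some members rose with submergence in both genotypes. In bak1-3 bkk1-1 12 of 74 tested members were higher and 0 lower, where 26.3% of all genes were called higher and 26.4% lower. In Col 8 of 74 were higher and 0 lower, where 25.4% were called higher and 24.1% lower. The counts of higher members were thus below the background in both genotypes. The medians of the members' log2 folds, 0.49 in bak1-3 bkk1-1 and 0.42 in Col, lay beside -0.016 and 0.009 over all genes. Submergence gave positive folds for 64 of the 74 members in bak1-3 bkk1-1 and for 57 in Col. The share of positive folds over all genes was not counted. The members share each library's organelle share, so these numbers are a description only.

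The member with the smallest p in Col was ATCG01130. In bak1-3 bkk1-1 it had 6.32, 6.36 and 4.51 CPM under submergence, against 2.45, 3.10 and 2.31 CPM in mock, a log2 fold change of 1.16 ± 0.32 (adjusted p = 0.00572 by edgeR). In Col it had 4.68, 6.02 and 10.1 CPM under submergence, against 2.79, 2.44 and 1.16 CPM in mock, a log2 fold change of 1.68 ± 0.33 (adjusted p = 0.000311 by edgeR). The member with the smallest p in bak1-3 bkk1-1 was ATCG01020. It had 16.7, 25.6 and 23.1 CPM under submergence, against 9.87, 14.0 and 12.7 CPM in mock, a log2 fold change of 0.88 ± 0.17 (adjusted p = 0.000207 by edgeR). In Col it had 19.2, 18.6 and 19.6 CPM under submergence, against 12.8, 12.9 and 13.9 CPM in mock. Submerged and mock libraries did not overlap for either member in either genotype.

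Of the annotated members, ATCG00530 was called in both genotypes. It had 7.91, 6.61 and 8.09 CPM in submerged bak1-3 bkk1-1, against 5.20, 6.35 and 4.54 CPM in mock. In Col it had 7.90, 12.5 and 8.52 CPM under submergence, against 5.88, 4.81 and 6.63 CPM in mock. The log2 folds were 0.53 ± 0.22 in bak1-3 bkk1-1 (adjusted p = 0.0484 by edgeR) and 0.73 ± 0.22 in Col (adjusted p = 0.00882 by edgeR). The calls are close to the threshold in the mutant. CLP P had 3.95, 3.68 and 5.76 CPM in submerged Col, against 1.96, 2.7 and 3.52 CPM in mock Col, and its log2 fold change of 0.69 ± 0.30 was not called (adjusted p = 0.0634 by edgeR). Ribosomal proteins S11 and L20 and ATCG00430 had 0.218 to 2.30 CPM in the Col libraries of this set and were not called in either genotype.

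The count in Col was 4 without the second mock Col library, the one with the seed storage markers among the mock Col libraries, and 5 without the second submerged Col library. The submerged Col libraries all held these markers, 9 of 9 measured, and their part in the Col result was not tested. In bak1-3 bkk1-1 the markers summed to 0.222 to 2.03 CPM under submergence, with 3 of 9 at 0, against 0.0891 to 11.4 CPM in mock, also with 3 of 9 at 0, and the count stayed between 8 and 11 without any 1 library. Relative to the chloroplast total, 0 members were called in bak1-3 bkk1-1, where 6.71% of all genes were called higher and 48.7% lower. In Col 1 was higher and 2 were lower, where 8.09% were called higher and 35.2% lower.

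The nuclear photosynthesis genes went the other way in this set. Of the 45, 43 were lower and 0 higher under submergence in bak1-3 bkk1-1 and 40 were lower and 0 higher in Col, with median log2 fold changes of -0.88 and -0.62. CAB2, an antenna protein, fell by 1.75 ± 0.12 in bak1-3 bkk1-1 and by 1.20 ± 0.12 in Col on the log2 scale. SIGA, the main sigma factor of the plastid polymerase, fell by 1.4 ± 0.10 in bak1-3 bkk1-1 (adjusted p = 3.26e-09 by edgeR) and by 1.53 ± 0.10 in Col (adjusted p = 1.19e-09 by edgeR). Of the 21 genes for RNA decay and stability, 17 were lower and 2 higher in bak1-3 bkk1-1 and 14 were lower and 1 higher in Col. Of all genes 26.3% were called higher and 26.4% lower in bak1-3 bkk1-1, and 25.4% and 24.1% in Col.

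The bak1-3 bkk1-1 mutations themselves were not seen to change any member at this depth. By edgeR 0 of 74 were called against Col in mock, where 0.721% of all genes were called higher and 0.135% lower, and 0 of 74 under submergence, where 0.629% were called higher and 0.75% lower. At an unadjusted p under 0.05 there were 3 members in mock and 5 under submergence, and DESeq2 called 0 in both. The median log2 folds were 0.01 in mock and 0.04 under submergence, with a median SE of 0.49 and 0.47. The interaction with submergence also gave 0 of 74 calls by edgeR and by DESeq2, with 1 member at an unadjusted p under 0.05, where 0.00968% of all genes were called higher and 0.029% lower.

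The interaction tests asked whether the response to submergence differed from that of Col. For tcp21 4 of 85 members had a lower response than in Col and 0 a higher one, where 16.3% of all genes were called lower and 14.7% higher. The median interaction was -0.92 on the log2 scale, beside -0.038 over all genes. Of the 4, ATCG00370 and ATCG01040 passed the low-count filter only through the tcp21 libraries, where their counts are high. Without the third tcp21 library of both treatments 19 members were called lower, a count not made without such members. For tcpq 0 of 85 were called by edgeR and by DESeq2, with 1 at an unadjusted p under 0.05, where 17.5% of all genes were called higher and 17.1% lower.

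The wild-type controls of the 2 sets had similar chloroplast profiles in mock, with a Pearson r of 0.89 between the log2 shares of 82 members. Their responses to submergence were not alike across the 74 members tested in both sets, with an r of -0.15 between the log2 folds. Neither is a test, and most folds in Col were smaller than the spread they were measured with. Near the limit that defined the members, ATCG00110 with 31 counts and ATCG00690 with 32 were just inside in the bak set, and ATCG01120 with 28 was just outside. In the tcp set ATCG00010 with 33 and ATCG01310 with 34 were inside and ATCG00460 with 25 was outside. Rows with no count at all numbered 24 for the bak set against 10 for the tcp set. Too low for the test were 8 of the 82 members of the bak set and 4 of the 89 members of the tcp set.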

How the data were processed

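Gene counts of 30 poly-A libraries were analysed as a pair of tables, kept apart. Per the submitters' processing notes, fastp 0.23.1 and STAR 2.7.9a were used with TAIR10. The counts the authors deposited are whole numbers per gene without normalization. The sources used here do not give the counting tool, its strand setting or its treatment of reads with several matches. Rows of near-identical copies, such as those of the plastid inverted repeat, overlapping rows and antisense rows are therefore uncertain.

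Each table was fitted with all its groups in edgeR 4.0.16 under R 4.3.3 with filterByExpr, TMM and robust quasi-likelihood, which kept 20666 and 20385 genes. Calls needed a Benjamini-Hochberg adjusted p below 0.05 over all genes of a comparison. SE is the absolute log2 fold over the square root of F. CPM is counts over the library total. DESeq2 1.42.0 was an alternative. In simulated counts for Col submergence against mock, 79 of 100 doubled genes were recovered in the bak set and 88 of 100 in the tcp set. False calls were 13 of 122 and 3 of 148, so their share in the bak set was above 0.05. The changed genes were drawn only from those above a floor of mean CPM. Many members of the bak set lie below that floor, and the recovery does not describe them. Nothing says that replicates came from separate cultures, and each p-value then reflects library-to-library spread alone, which may be technical.

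The members and gene lists were chosen with earlier results of these data known. By rule the text names called members with the smallest p, the leading rows, those near the limit of 30 counts and called genes of the nuclear lists. Because most ATCG identifiers are not paired with symbols in the sources used here, the planned composition by gene class, levels per length and class representatives were not made. Leading rows were used in their place, and unpaired members are printed by identifier alone. The annotated members and the run ATCG00740 to ATCG00820 were named outside the naming rule, the run after its values were seen. Over all tested genes the replicate numbers of the titles gave no sign of pairing. Replicate 3 of tcp21 nevertheless had the highest chloroplast share of its group in both treatments. Pairing over the chloroplast rows alone was not tested. Some libraries carry other numbers in their count column names, and pairing by those was not tested.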

Additional observations from a re-analysis of the deposited data

Results flagged for a closer look

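In 4 of 85 tested members the response to submergence differed between tcp21 and Col by the interaction test of edgeR's quasi-likelihood fit. All 4 had a lower response in tcp21, where 16.3% of all genes were called lower. The difference between genotypes is why they are listed. ATCG00190 had an interaction of -1.35 on the log2 scale (adjusted p = 0.0353). In tcp21 it had 24.2, 20.4 and 45.3 CPM under submergence, against 53.5, 51.3 and 109 CPM in mock. In Col it had 18.8, 20.4 and 19.0 CPM under submergence, against 18.6, 17.2 and 18.9 CPM in mock, so the genotypes were closer under submergence than in mock. ATCG00420 had an interaction of -1.53 (adjusted p = 0.045) and averaged 3.30 CPM in submerged tcp21 and 7.94 CPM in mock tcp21.

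ATCG00370 and ATCG01040 rest on few counts in Col. Both passed the low-count filter only through the tcp21 libraries, where their counts are high. ATCG00370 had an interaction of -3.46 (adjusted p = 0.0413), with 18 counts over the submerged and 3 over the mock Col libraries. ATCG01040 had an interaction of -2.26 (adjusted p = 0.0471), with 22 counts over the submerged and 8 over the mock Col libraries, and adjusted p = 0.0559 by DESeq2. Leaving out 1 library at a time, the number of members called in this interaction ran from 0 to 22. It was 22 without the third submerged tcp21 library and 8 without the second mock tcp21 library. It was 0 without the third mock or second submerged tcp21 library, the first or second mock Col library, or the third submerged Col library, 1 without the first submerged tcp21 library, and 2 without the third mock or first submerged Col library.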

How the results depend on the processing

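DESeq2 size factors, library totals from nuclear genes and, for most comparisons, DESeq2 kept the counts of called members within 1.5 times of the reported ones. Exceptions, with the cause not tested unless stated, follow by setting. With the groups of a comparison fitted alone, Col submergence in the tcp set had 5 higher and 1 lower, tcp21 submergence 1 lower, tcpq submergence 7 higher and 5 lower, tcpq against Col 15 higher in mock and 12 under submergence, and the tcp21 interaction 1 lower. With no filter on low counts, submergence in the tcp set had 1 higher in Col and 1 higher in tcpq. DESeq2 called 5 higher for Col submergence in the tcp set, and 9 in mock and 2 under submergence for tcpq against Col. Over all tested genes, libraries of the same replicate number did not deviate together (r from -0.093 to 0.071 in the bak set and from -0.076 to 0.068 in the tcp set). This was not examined over the chloroplast rows alone. With a replicate block tcpq against Col had 8 higher in mock and 0 under submergence. The block moved no other count by over 1.5 times.

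With the chloroplast total as library size, which removes a shared change by construction, higher and lower calls for submergence against mock were 1 and 2 in Col of the bak set, 0 higher in bak1-3 bkk1-1, 0 higher in Col of the tcp set, 8 and 0 in tcp21 and 1 higher in tcpq. They were 17 and 23 for tcp21 against Col in mock, 19 and 13 under submergence, 2 higher in mock and 0 under submergence for tcpq, and 0 lower in the tcp21 interaction. Over 45 results on named members, calls were lost in 83 of 294 fits that left out 1 library, 11 of 43 with only the groups compared, 5 of 45 with no filter, 4 of 45 with the block, 3 of 45 with DESeq2 size factors, 2 of 45 by DESeq2, 1 of 45 with nuclear totals, 1 of 22 without replicate 3 of tcp21 and 27 of 43 with the chloroplast total. On that last scale 5 changed sign. ATCG00480 was at -0.02 in bak1-3 bkk1-1 under submergence, ATCG00190 at 0.01 and ATCG00420 at 0.12 in submerged tcp21, and ATCG00710 at -0.53 and ATCG00430 at -0.82 in mock tcp21 against Col.

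Without replicate 3 of tcp21 in both treatments, an alternative chosen after seeing the data, submergence had 42 and the interaction 19 lower members. Leaving out 1 library at a time, higher calls under submergence ran from 8 to 11 in bak1-3 bkk1-1 and 4 to 9 in Col of the bak set, 0 to 1 in tcp21, 0 to 2 in tcpq and 1 to 4 in Col of the tcp set, and lower calls from 3 to 53 in tcp21 and 0 to 1 in tcpq. For tcp21 against Col they ran from 69 to 76 in mock and 44 to 68 under submergence, for tcpq from 0 to 5 and 0 to 3, and for lower calls in the interactions from 0 to 22 in tcp21 and 0 to 1 in tcpq. Every other count of called members stayed at 0 when 1 library was left out.

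The 10 leading rows of mock Col took 63.9% of the chloroplast counts in submerged and 62% in mock bak1-3 bkk1-1, and 58.8% in submerged and 59.4% in mock Col of the bak set. In the same order these became 68.4%, 67.1%, 63.4% and 64.4% over members with at least 300 counts, and 55.9%, 55.5%, 51.4% and 53.3% without the leading row. In the tcp set they became, without the leading row, 39.2% in submerged tcp21, 41.2% in submerged and 45.1% in mock tcpq, and 46.9% in submerged and 50.5% in mock Col. Shares without ribosomal and transfer RNA rows were not run, because those rows could not be identified. Members with few counts limit the bak set, where 8 of 82 were not tested.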
